A study of Mus musculus with 7 samples.

Results

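The GATA factors are the transcription factors encoded by *Gata1*, *Gata2*, *Gata3*, *Gata4*, *Gata5* and *Gata6*, and all 6 were measured in the posterior second heart field (pSHF) of E9.5 mouse embryos that lack *Shh* and of their wild-type counterparts. Members were all probes that carry one of these 6 gene names and are not control spots, which gave 6 genes of the 21475 named on the array and 10 of its 41174 probes. Of these 10, 8 were bright enough to be tested, and each gene is described by its brightest tested probe. The mutant group held 4 pools of *Shh* -/- embryos (pools 1, 2, 3 and 4) and the control group 3 pools of *Shh* +/+ embryos (pools 1, 3 and 4). All were untreated E9.5 embryos on a mixed C56B/6 and CD-1 background, as the labels spell it, from superovulated *Shh* +/- females mated with *Shh* +/- males. Every cell of a mutant embryo carries the null genotype. The dissected tissue kept the foregut and the ventral lateral plate mesenchyme around the pSHF but not the heart or neural tube, so each value is an average over several cell types of several embryos, and fewer cells of a type and less RNA per cell cannot be told apart. The comparison asks whether loss of this Hedgehog ligand changed the level of GATA factor RNA.

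GATA proteins bind the DNA letters GATA through zinc fingers and work with cofactors of the FOG family. By long use they are divided by tissue. GATA1 drives red cell and megakaryocyte formation, GATA2 acts in blood progenitors and endothelium, and GATA3 is best known in T cells and is also used by sympathetic neurons and several epithelia. GATA4, GATA5 and GATA6 act in heart precursors, in the endocardium and in the endoderm of gut, liver and lung, where they work with NKX2-5, TBX5 and HAND2 on the cardiac side and with FOXA and HNF proteins on the endodermal side.

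The first 30 bases of the 60-base probe that read each gene are given below, since the values belong to these stretches of the transcripts and not to the genes as a whole. They are in lower case throughout because no part is singled out, and the positions are those of the scanner files on mm9. The *Gata1* probe is on the minus strand at chrX:7536849-7536908 and was printed at 10 spots on every array. The *Gata2* probe is on the plus strand at chr6:88156835-88156894, and *Gata3* was read on the minus strand at chr2:9778983-9779042. The *Gata4* probe is listed on the minus strand at chr14:63817752-63817773, an interval shorter than the probe. The *Gata5* probe is on the minus strand at chr2:180060223-180060282. Exon and UTR annotation of this build was not used here.
Gata1: gcgtgatcgccccactcagttcttgaaggt
Gata2: ctagtacccgcataagagaagaatcggcag
Gata3: ataaactagattgctttcagttgacttaag
Gata4: gaagcccaccttggctgcaagcacagcaca
Gata5: cacagctgtgcacaaggtcatagcaccatg

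The 7 arrays lay on 4 slides, and mutant and wild-type pools of the same number shared a slide. The mutant array always had the first position on it, so genotype and position cannot be told apart. Mutant pool 2 had no partner on its slide, and a possible leak during its hybridization is noted in the labels. On an array, 60.6% to 71.3% of spots were well above background and none was saturated. Over all 23117 probes tested, 129 had an adjusted p under 0.05 by limma with Benjamini-Hochberg adjustment, which is 0.558%, with 68 lower in the mutants and 61 higher. With slide as a block, which leaves out mutant pool 2, this count was 11. The labels' genotype was visible in Hedgehog target genes. *Hhip*, an inhibitor that Hedgehog signaling induces, fell by 2.83 on the log2 scale (SE 0.18, limma adjusted p = 0.00127), and *Foxf2*, a forkhead factor of foregut mesenchyme, fell by 2.43 (SE 0.18, limma adjusted p = 0.00216). The *Shh* probe itself stood between 9.22 and 9.67 in the mutant pools and between 9.98 and 10.74 in the wild-type pools, a difference of −1.08 (SE 0.20, limma adjusted p = 0.0653), and whether it lies in the deleted part is not given in the sources used here. All 12 genes of a second heart field list, *Isl1*, *Tbx5* and *Osr1* among them, were bright enough to be tested.

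None of the 6 GATA factors passed an adjusted p of 0.05, against 0.558% of all probes. The differences were small in size and ran in both directions. At an unadjusted p of 0.05, 4 of the 6 passed, with *Gata1*, *Gata3* and *Gata5* lower and *Gata6* higher in the mutants, against 7.96% of all probes tested. With slide as a block, and equally without mutant pool 2 or wild-type pool 3, *Gata1* alone did, and without mutant pool 3 or wild-type pool 4 there were 2. The direction of *Gata2*, *Gata4* and *Gata6* turned on the authors' deposited values, on which the median of all probes was −0.54. The genotypes did not overlap in *Gata1*, *Gata3* and *Gata5*, where every mutant pool was the lower, against 3.57% of the 23026 probes that had values on all arrays. They did not overlap in *Gata2* and *Gata6*, where every mutant pool was the higher, against 4.78% of the same probes. In 3 of these 5 genes (*Gata2*, *Gata3* and *Gata5*) the gap between the genotypes was under 0.05 on the log2 scale, smaller than the median within-genotype SD of 0.19 over all probes.

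**Figure D1:**
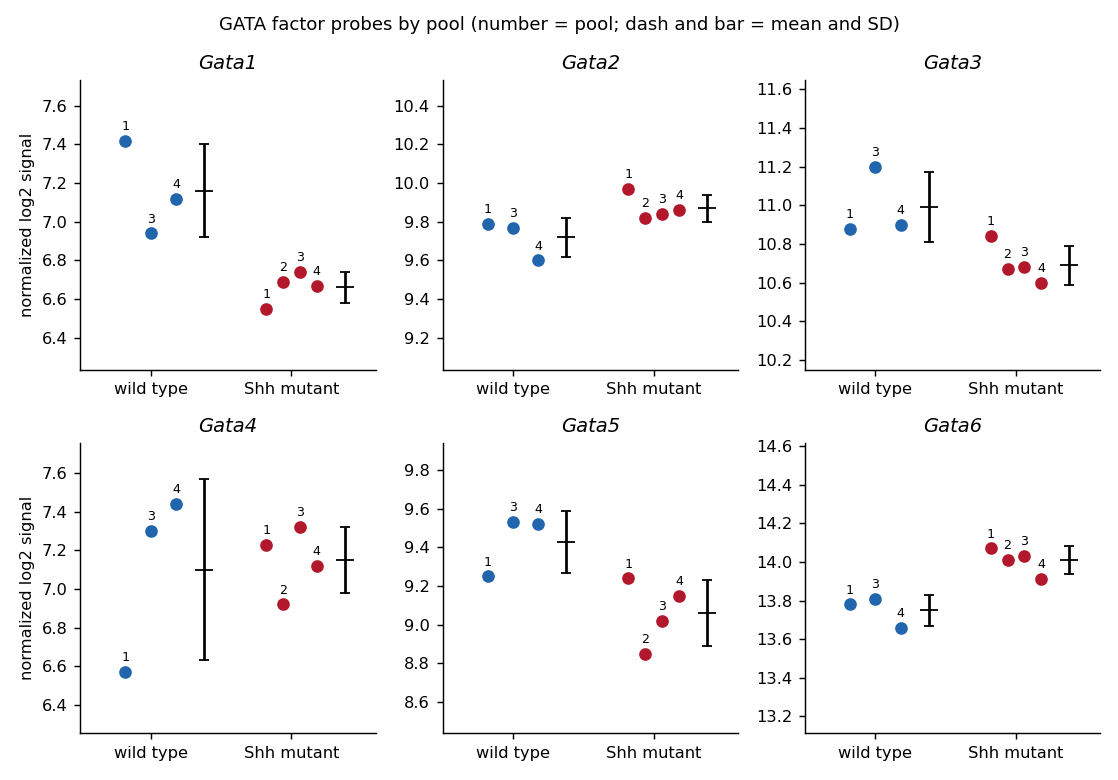
Normalized log2 signal (y axis, the same span of 1.5 in each panel) of the 6 GATA factors in each wild-type (blue, n = 3) and *Shh* mutant (red, n = 4) pool, with pool numbers above the points and mean ± SD as a dash and bar. *Gata1* has the widest gap between genotypes, 0.21, and *Gata4* is the one panel in which the genotypes overlap.

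*Gata1*, the master regulator of red cells, showed the largest difference of the 6. Its normalized log2 signal was 6.55, 6.69, 6.74 and 6.67 in mutant pools 1 to 4, and 7.42, 6.94 and 7.12 in wild-type pools 1, 3 and 4. All mutant pools were thus below all wild-type pools, and wild-type pool 1 stood highest. The means were 6.66 ± 0.08 (SD, n = 4) and 7.16 ± 0.24 (SD, n = 3), which put the mutants at 70.8% of the wild-type signal, with a 95% interval of 57.4% to 87.4%. The log2 difference was −0.50 with an SE of 0.13 (limma unadjusted p = 0.00487, adjusted p = 0.207). Among all tested probes, 4.93% differed by as much or more in size. Because the probe was printed at 10 spots, its error within an array could be read directly, and the SD between spots was 0.05 to 0.17. On the shared slides the mutant pool was lower in all 3 pairs, by −0.87 in pair 1, −0.21 in pair 3 and −0.45 in pair 4. The signal was dim, with spot averages of 108 to 184 intensity units against a local background of 21 to 25.

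*Gata2*, a factor of blood progenitors and endothelium, was slightly higher in the mutants. It read 9.97, 9.82, 9.84 and 9.86 in the mutant pools and 9.79, 9.77 and 9.60 in the wild-type pools. The lowest mutant pool exceeded the highest wild-type pool by 0.03. The log2 difference was 0.15 with an SE of 0.11 and a 95% interval of −0.09 to 0.39 (limma adjusted p = 0.979). A second *Gata2* probe, at chr6:88156362-88156421, read 9.05, 8.99, 8.63 and 8.64 in the mutant pools and 8.65, 8.87 and 8.85 in the wild-type pools. There the genotypes overlapped, and the difference was 0.04 (SE 0.14, limma adjusted p = 1).

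*Gata3*, which acts in lymphocytes, sympathetic neurons and epithelia, was lower in the mutants. The mutant pools read 10.84, 10.67, 10.68 and 10.60, and the wild-type pools 10.88, 11.20 and 10.90. Mutant pool 1 came within 0.04 of wild-type pool 1, its slide partner, and the other mutant pools were further below. The means of 10.69 ± 0.10 (SD, n = 4) and 10.99 ± 0.18 (SD, n = 3) differed by −0.30 with an SE of 0.12 (limma unadjusted p = 0.0382, adjusted p = 0.561). The mutant level was 81.2% of the wild-type level, with a 95% interval of 66.9% to 98.6%. Without wild-type pool 3 the difference was −0.20.

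*Gata4*, a core factor of heart and foregut, could not be separated between genotypes. The mutant pools read 7.23, 6.92, 7.32 and 7.12, all within the range of the wild-type pools, which read 6.57, 7.30 and 7.44. Wild-type pool 1 was the lowest of the 7 pools, and the wild-type SD was 0.47, against 0.17 in the mutants. The difference was 0.04 with an SE of 0.21, and its 95% interval of −0.43 to 0.52 spans 74.3% to 143% of the wild-type level (limma adjusted p = 1). Without wild-type pool 1 it became −0.22 (limma adjusted p = 0.846), and without mutant pool 3 it was −0.01, so its sign depends on the pools included. A second *Gata4* probe was printed at 10 spots and listed at chr14:63818147-63818206. It was well above background in 1 wild-type pool and in no mutant pool, and was therefore not tested.

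*Gata5*, which acts in the endocardium and in endoderm, was lower in the mutants. It read 9.24, 8.85, 9.02 and 9.15 in the mutant pools and 9.25, 9.53 and 9.52 in the wild-type pools. Mutant and wild-type pool 1 were almost level, and the other mutant pools lay well under wild-type pools 3 and 4. The means of 9.06 ± 0.17 (SD, n = 4) and 9.43 ± 0.16 (SD, n = 3) differed by −0.37 with an SE of 0.13 (limma unadjusted p = 0.0224, adjusted p = 0.434). The mutant level was 77.4% of the wild-type level, with a 95% interval of 62.6% to 95.5%.

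*Gata6*, needed for heart, liver and lung development, was higher in the mutants. Its main probe, the brightest of the family with 11200 to 24900 intensity units, read 14.07, 14.01, 14.03 and 13.91 in the mutant pools and 13.78, 13.81 and 13.66 in the wild-type pools. Every mutant pool exceeded every wild-type pool, and the gap between them was 0.10. The difference was 0.26 with an SE of 0.10 (limma unadjusted p = 0.036, adjusted p = 0.545), which is 119% of the wild-type level with a 95% interval of 101% to 141%. On the shared slides the mutant pool was higher by 0.29, 0.22 and 0.25 in pairs 1, 3 and 4. A second *Gata6* probe read 8.72, 8.89, 8.78 and 8.55 in the mutant pools and 7.87, 8.69 and 8.80 in the wild-type pools. It differed by 0.28 in the same direction, but with overlapping genotypes and an SE of 0.22 (limma adjusted p = 1), and wild-type pool 1 stood lowest here as it did for *Gata4*. The remaining *Gata6* probe was too dim to be tested, being well above background in 2 pools of each genotype.

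Taken one at a time, an exact two-sided permutation test of the difference in means gave p = 0.0286 for *Gata1*, *Gata2* and *Gata6*, the smallest value that the 35 splits of 7 pools allow. The same exact test gave 0.0571 for *Gata3* and *Gata5* and 0.886 for *Gata4*. These 6 tests are unadjusted.

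**Figure D2:**
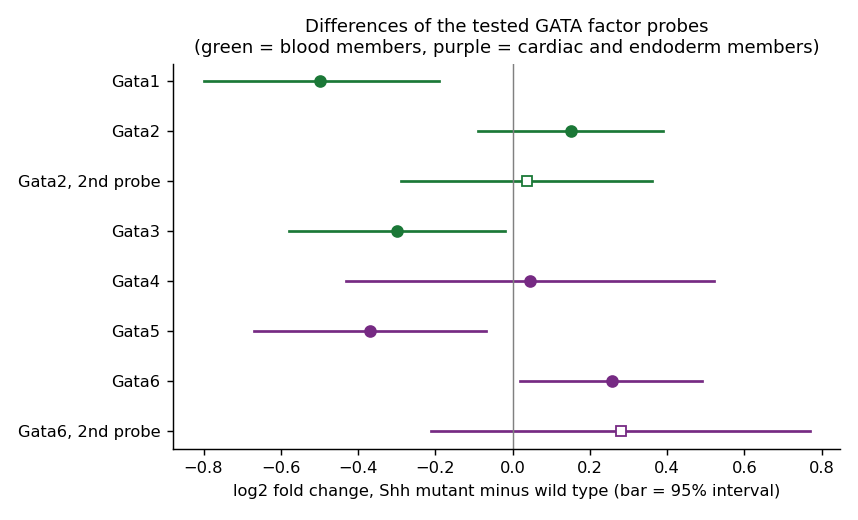
Log2 fold change of *Shh* mutant minus wild-type pools (x axis) with its 95% interval from limma for the 8 tested probes, filled circles for each gene's main probe and open squares for second probes. The intervals of *Gata1*, *Gata3* and *Gata5* lie below 0 and that of the main *Gata6* probe, from 0.02 to 0.49, lies above it.

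Set by the usual division, the signs of the mean differences did not separate the family. Among the blood members, the log2 differences were −0.50 for *Gata1*, 0.15 for *Gata2* and −0.30 for *Gata3*. Among the cardiac and endoderm members they were 0.04 for *Gata4*, −0.37 for *Gata5* and 0.26 for *Gata6*. Blood members and cardiac and endoderm members thus each held genes with a lower and genes with a higher mean in the mutants, and no test was made between them. Over all tested probes, the median difference was 0.02 and 44.6% were lower in the mutants.

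The FOG cofactors, which GATA proteins need for many of their targets, were both tested and neither passed. *Zfpm1*, the partner of GATA1, differed by 0.06 (SE 0.13), with a mean of 15.18 in the mutant pools and 15.12 in the wild-type pools (limma adjusted p = 1). *Zfpm2*, the partner of GATA4 in the heart, differed by 0.44 (SE 0.28, limma adjusted p = 0.921), and its pools overlapped.

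Of 11 blood partners of GATA1 to GATA3, 10 were tested and none passed an adjusted p of 0.05. Of these, 7 had a lower and 3 a higher mean in the mutants, with a median difference of −0.09. Without wild-type pool 1 the split was 5 to 5 with a median of −0.01, without wild-type pool 3 it was 9 to 1 with −0.17, and without mutant pool 3 the median was −0.06. The largest difference was in *Klf1*, an erythroid factor that shares many targets with GATA1, at −0.53 (SE 0.20, limma adjusted p = 0.503). The next was *Tal1*, which joins GATA1 in a complex on DNA, at −0.51 (SE 0.20, limma adjusted p = 0.492). *Tal1* read 10.91, 11.05, 10.94 and 10.61 in the mutant pools and 11.86, 11.20 and 11.10 in the wild-type pools, so that the genotypes did not overlap. *Lmo2*, the bridging protein of that complex, was the other partner without overlap, at −0.43 (SE 0.13, limma adjusted p = 0.314). Among all probes with values on every array, 3.57% had no overlap with the mutants lower. *Ldb1* and *Gfi1b* differed by −0.13 and −0.19, both with overlapping pools. *Spi1*, the myeloid factor that opposes GATA1, was too dim to be tested.

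All 10 heart partners of GATA4 to GATA6 were tested, none passed, and they were split evenly, 5 lower and 5 higher, around a median of −0.01, which ranged from −0.11 to 0.11 with 1 pool left out. The largest in size were *Tbx20* at 0.58 (SE 0.46) and *Hand1* at 0.52 (SE 0.24), both with overlapping pools. *Isl1*, a marker of the second heart field, was the one without overlap, at −0.43 (SE 0.13, limma adjusted p = 0.319). *Nkx2-5* and *Tbx5*, which bind DNA jointly with GATA4, differed by −0.25 (SE 0.24) and −0.31 (SE 0.18).

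All 10 endoderm partners of GATA4 to GATA6 were tested as well. None passed, 6 had a higher mean in the mutants, and the median was 0.48. In 4 the genotypes did not overlap with the mutants the higher, against 4.78% of all probes with values on every array. These 4 were *Hnf4a*, *Foxa3*, *Hhex* and *Prox1*, all of which are expressed in the liver bud. *Hnf4a* had the largest difference, 0.84 (SE 0.20, limma adjusted p = 0.132). It read 8.42, 8.85, 9.09 and 8.81 in the mutant pools and 7.59, 8.02 and 8.24 in the wild-type pools. *Foxa3* followed at 0.76 (SE 0.16, limma adjusted p = 0.1). *Foxa2* and *Sox17*, also of this list, differed by −0.25 (SE 0.12) and −0.03 (SE 0.14). Without wild-type pool 1 the median of this list was 0.29.

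**Figure D3:**
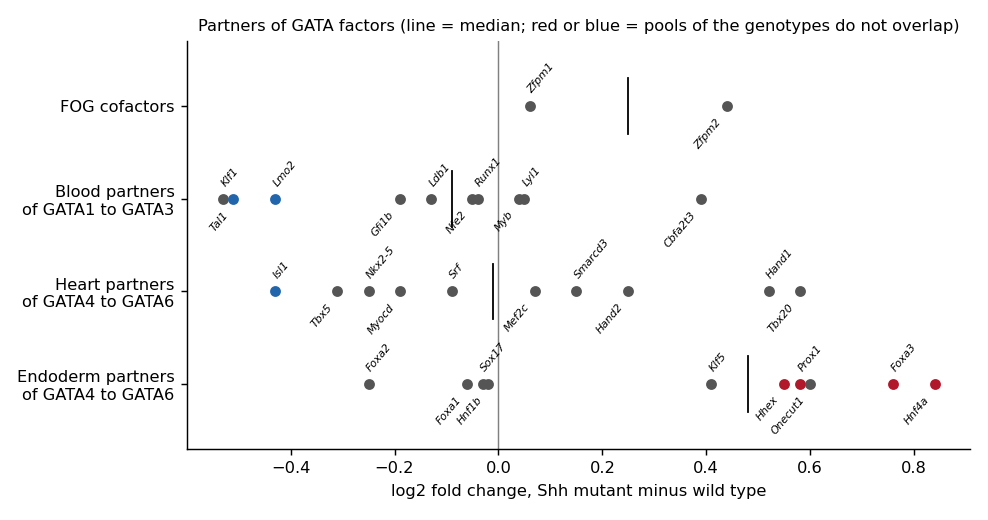
Log2 fold change of *Shh* mutant minus wild-type pools (x axis) for the tested cofactors and partners of the GATA factors, 1 point per gene, with the list median as a black line. Red and blue points are genes whose pools do not overlap between genotypes, 4 of them higher among the endoderm partners and 3 lower among the blood and heart partners. Over all probes with values on every array, these shares were 4.78% for mutants higher and 3.57% for mutants lower.

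Markers of the cells in which GATA factors are found were read in the same pools. For red cells, all 16 markers tested had a lower mean in the mutants, none passed an adjusted p of 0.05, and the median was −0.37, within a range of −0.93 to −0.23. The largest difference was in *Rhag*, a membrane protein of red cells, at −0.93. The mean log2 level of the list was 11.40, 11.57, 11.03 and 10.98 in the mutant pools and 12.36, 11.26 and 11.40 in the wild-type pools. Wild-type pool 1 was the highest pool both in this list and in *Gata1*. Without it, 9 of the 16 markers were lower and their median was −0.10, whereas *Gata1* differed by −0.37 (limma unadjusted p = 0.0172, adjusted p = 0.493). Mutant pools 1 and 2 stood at or above wild-type pools 3 and 4 in the red cell list and below them in *Gata1*, and all 4 mutant pools were below the wild-type mean of the list. The share of red cells in the *Gata1* difference was not tested. Of 6 megakaryocyte markers, 5 had a higher mean in the mutants with a median of 0.48 and none passed. Without wild-type pool 3 the median was 0.23. The largest were *Ppbp* at 0.68 and *Pf4* at 0.53, both platelet chemokines.

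Endothelial markers, which bear on *Gata2*, were near level. Of 13, 10 had a higher mean (7 to 11 with 1 pool left out), none passed, and the median was 0.04. The largest differences were in *Tie1* (0.36) and *Tek* (0.29), both endothelial receptor kinases. The list means were 10.82 to 11.19 in the mutant pools and 10.94 to 11.01 in the wild-type pools.

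Autonomic neuron markers, which bear on *Gata3*, had lower means in all 7 genes tested, with a median of −0.44. With 1 pool left out, 6 or 7 were lower, with medians of −0.58 to −0.36, and with slide as a fixed block 6 were. The smallest difference was in *Tubb3*, a general neuron gene, at −0.04 (SE 0.24). *Phox2a*, a determinant of autonomic neurons, fell by 1.19 on the log2 scale (SE 0.19, limma adjusted p = 0.0437). The list means were 7.58, 7.47, 7.68 and 8.03 in the mutant pools and 8.21, 8.14 and 8.35 in the wild-type pools, without overlap. *Th*, the enzyme of catecholamine synthesis, was too dim to be tested. *Phox2a* no longer passed with slide as a fixed block, or without mutant pool 2 or 3 or any 1 of the wild-type pools. Nor did it pass with 75th percentile scaling, with no filter on dim probes, or on the authors' values, as deposited or set to 1 median per array. Surface ectoderm markers were lower in 4 of 5 with a median of −0.28. *Tfap2c*, a factor of surface ectoderm and neural crest, fell by 1.18 (SE 0.14, limma adjusted p = 0.0166), and *Tfap2a* differed by −0.55. *Tfap2c* no longer passed with slide as a fixed block, without mutant pool 3 or wild-type pool 1 or 3, or on either form of the authors' values. The list means were 8.75 to 9.12 in the mutant pools and 9.04 to 9.43 in the wild-type pools. The part of these cells in the *Gata3* difference was not tested.

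Markers of endoderm and heart bear on *Gata4*, *Gata5* and *Gata6*. Of 12 hepatoblast markers, 11 were tested, all with a higher mean in the mutants and with a list median of 0.91. Past the threshold rose 4 of them, against 0.558% of all tested probes called in either direction. Fibrinogen *Fga* rose by 1.45 (SE 0.24, limma adjusted p = 0.044), albumin (*Alb*) by 1.22 (SE 0.21, limma adjusted p = 0.0496), the thyroid hormone carrier *Ttr* by 0.91 (SE 0.14, limma adjusted p = 0.032), and *Fgb* by 0.82 (SE 0.14, limma adjusted p = 0.0495). *Ahsg* had the largest difference, 1.61 (SE 0.29, limma adjusted p = 0.0574). The 4 calls became 0 with slide as a fixed block and without mutant pool 2 or 3 or any 1 of the wild-type pools. They also became 0 with 75th percentile scaling, with no filter on dim probes and on either form of the authors' values. All 11 means stayed higher in each of these. The list means were 11.37, 11.83, 11.88 and 11.80 in the mutant pools and 10.59, 10.77 and 10.95 in the wild-type pools, without overlap. The order of the pools differed, since mutant pool 1 was the lowest of the mutants in this list and the highest in *Gata6*. The part of liver cells in the *Gata6* difference was not tested.

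Foregut epithelium markers had a lower mean in 6 of 8, with a median of −0.18, and none passed. With slide as a random block 2 of them passed, and without wild-type pool 4 there was 1. The largest differences were in *Shh*, the gene mutated here, and in *Nkx2-1*, the lung and thyroid factor, at −0.88 (SE 0.15, limma adjusted p = 0.0518). *Shh* is among the 6 lower genes and enters the list median and means, which therefore do not read the epithelium alone. The 2 higher genes were the keratins *Krt8* (0.39) and *Krt18* (0.12). The list means were 11.18 to 11.29 in the mutant pools and 11.44 to 11.63 in the wild-type pools. Cardiomyocyte markers were bright although the heart had been cut away. Of 15, 14 had a higher mean in the mutants, none passed, and the median was 0.26, with the largest differences in *Myl2* (1.24, SE 0.57) and *Nppb* (0.80, SE 0.31). Without wild-type pool 4, 9 of the 15 were higher with a median of 0.05, without mutant pool 1 it was 10 with 0.08, and without mutant pool 4 the median was 0.52. Their list means were 12.86, 12.52, 12.54 and 11.53 in the mutant pools and 12.24, 12.37 and 11.54 in the wild-type pools. Pools 4 of both genotypes were the lowest, and each was the lowest of its genotype in *Gata6* as well. The other members differed, since wild-type pool 4 was the highest of all pools in *Gata4*, at 7.44. In *Gata5*, mutant pool 4 read 9.15 and wild-type pool 4 read 9.52, and neither was the lowest of its genotype. The part of heart cells in the member differences was not tested. The second heart field list had 8 lower and 4 higher means, none past the threshold, and a median of −0.16, which was −0.08 without mutant pool 4. Its largest differences were in *Osr1*, a factor of this mesenchyme, at −0.88 (SE 0.24, limma adjusted p = 0.232) and in *Foxf1* at −0.80 (SE 0.17, limma adjusted p = 0.0926).

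**Figure D4:**
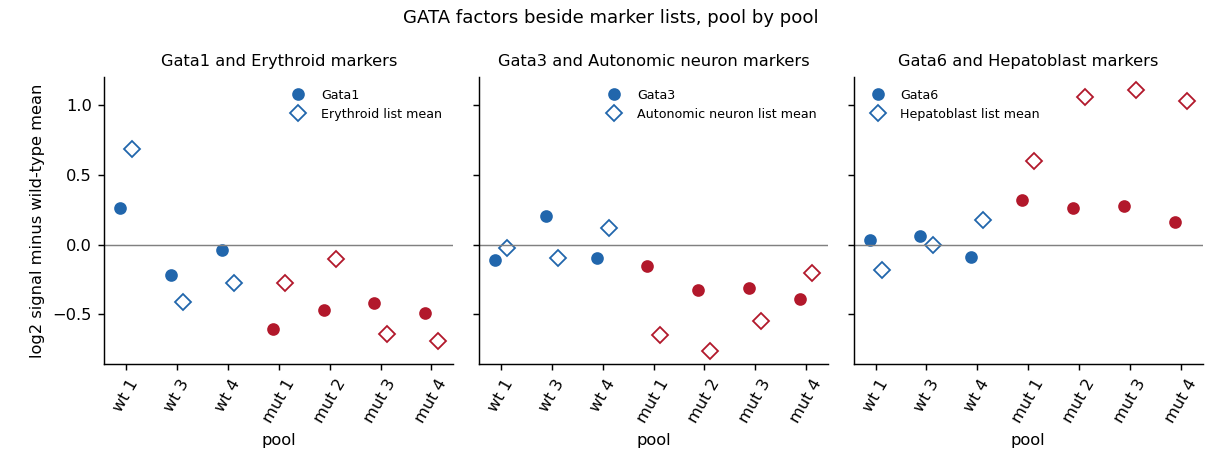
Log2 signal minus the wild-type mean (y axis) in each pool (x axis) for *Gata1*, *Gata3* and *Gata6* (filled circles) and for the mean of the red cell, autonomic neuron and hepatoblast marker lists (open diamonds), wild-type pools in blue and mutant pools in red. Wild-type pool 1 is highest in both *Gata1* and the red cell list, and all 4 mutant pools lie below the wild-type mean in both. In the list, unlike in *Gata1*, mutant pools 1 and 2 lie at or above wild-type pools 3 and 4.

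The genes whose pattern over the 7 pools was most like that of each member are given as a description. These r values share the same 7 arrays and were the highest among 23026 probes. For *Gata1* they were *Tbx21* (Pearson's r = 0.992), *Lgr6* (0.991) and *T* (0.991). For *Gata2* they were *Yif1a* (0.986), *Ube2f* (0.977) and *Flrt3* (0.975), and for *Gata3* *Nucb2* (0.981) and *Slain1* (0.958). *Gata4* was most like *Ppap2a* (0.996), *Cebpb* (0.984) and *Cdc42ep1* (0.979), and *Gata5* most like *Arhgap28* (0.985), *Lpin1* (0.982) and *Rngtt* (0.965). For *Gata6* they were *Gabrp* (0.989), *Slc30a4* (0.988) and *Nrn1* (0.987). None of these was another GATA factor or a gene of the partner lists. Of the genes named here, *Nrn1* alone passed the test between genotypes, rising by 1.21 (limma adjusted p = 0.0374).

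**Figure D5:**
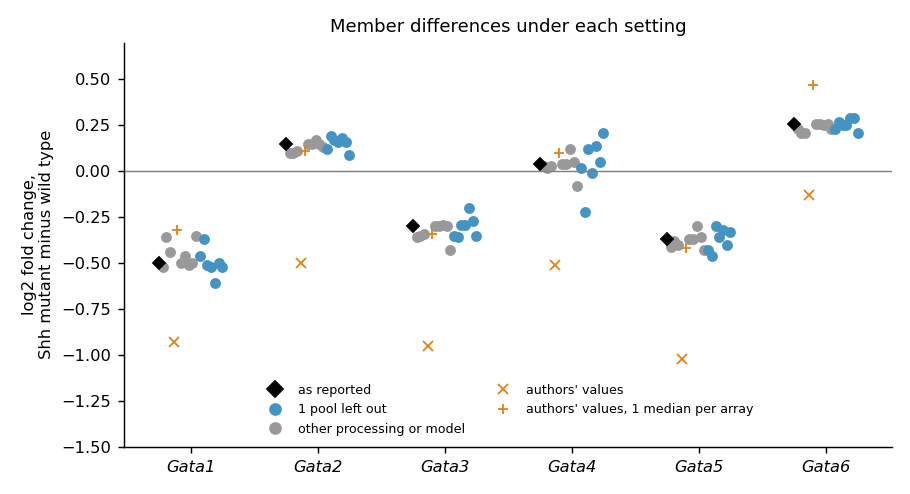
Log2 fold change of *Shh* mutant minus wild-type pools (y axis) of the 6 GATA factors as reported (diamonds), with 1 pool left out (blue), under other processing or models (grey) and on the authors' values (orange crosses as deposited, orange plus signs after setting each array to 1 median). *Gata1*, *Gata3* and *Gata5* stay below 0 in all 17 alternatives, and *Gata4* crosses 0 in 4 of them. On the authors' values as deposited all 6 genes lie below 0, and the median of all probes was −0.54.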

How the data were processed

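RNA of 7 pools was labelled with Cy3 and hybridized to 1 Agilent array per pool. The authors' deposited scanner files hold the mean signal of each of 43379 spots as intensity, read by Agilent Feature Extraction 10.5.1.1 according to the submitters' processing notes, and the authors' normalized log2 values were deposited separately. Groups and replicate numbers came from the labels, which hold the strain under genotype and the reverse. As in the study's methods, outlier spots were left out (155 to 206 per array), mean signals were background corrected and normalized by VSN, and values are log2. Here the correction was normexp (offset 50, background from the 153 negative controls of an array), and VSN was an own implementation (trimming share 0.9, 7 iterations, 5 strata). Spots of a probe were averaged. Tests covered the 23117 named probes (14891 genes) that were well above background in every pool of at least 1 genotype, and used limma 3.58.1 in R 4.3.3 (with the packages data.table, version 1.17.8, and statmod, version 1.5.0), with an exact permutation test for single probes. SAM, which the methods used, was not run, and depth does not apply to arrays, whose number limits the precision. Pools are separate samples by the labels, and how many embryos each held is not given in the sources used here, so p-values measure the spread between pools. The VSN and limma steps were tested on simulated data.

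The GATA factors, the gene lists and the rule for named genes (all member probes, and from each list the calls and the 2 largest differences, with the 3 closest patterns per member) were chosen with earlier results of these data known. Other genes of the lists are named for their known ties to a member. Replicate number marks a shared slide by the labels. The deviations from the genotype means correlated at 0.192, 0.239 and 0.033 within slides, and between −0.22 and 0.187 over the 9 pairs of other slides. Alternatives were the authors' values, scaling to the 75th percentile of the processed signal, quantile normalization, dim probes kept, uncorrected background, outlier spots kept, slide as a fixed or random block, array weights, each pool left out, and other probes. The authors' values brought to a common array median, and the directions and medians of the lists under each alternative, were added after seeing the data. Plots used matplotlib 3.10.9 (Python 3.11.15). Probe sequence of *Gata6* and some genes that the rule names are not reported here.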

Additional observations from a re-analysis of the deposited data

How the results depend on the processing

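In none of the 17 alternatives did a GATA factor pass an adjusted p of 0.05, and the lowest adjusted p was 0.0799, for *Gata5* with array weights. *Gata1*, *Gata3* and *Gata5* kept their direction in all 17 alternatives. The authors' values as deposited are 1 of these, and there all 6 members were lower in the mutants. A lower sign in that setting therefore says little about a single gene. With each pool left out in turn, the log2 differences ranged from −0.61 to −0.37 for *Gata1*, 0.09 to 0.19 for *Gata2*, −0.36 to −0.20 for *Gata3*, −0.22 to 0.21 for *Gata4*, −0.46 to −0.30 for *Gata5* and 0.21 to 0.29 for *Gata6*. The sign of *Gata4* turned with array weights (−0.08), without wild-type pool 1 (−0.22), without mutant pool 3 (−0.01) and on its second probe with no filter on dim probes (−0.03), and that of *Gata6* turned on its remaining dim probe with no filter (−0.08). On the authors' values as deposited, whose array medians run from 5.50 in mutant pool 2 to 9.93, the median of all probes was −0.54, and *Gata2* (−0.50), *Gata4* (−0.51) and *Gata6* (−0.13) turned as well. With each array set to 1 median, a choice made after seeing the data, the median was 0.07 and they were 0.11, 0.10 and 0.47. The cause was not tested.

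With slide as a fixed replicate block, which leaves out mutant pool 2, the differences were −0.51, 0.17, −0.29, 0.12, −0.30 and 0.25 for *Gata1* to *Gata6*, the lowest adjusted p was 0.352, and the block changed no call among them. The count of called probes was 129 as reported, 182 with a random slide, 57 with 75th percentile scaling, 33 with no filter on dim probes, 550 with array weights, 0 on either form of the authors' values and 12 to 136 with 1 pool left out. It was 12 without mutant pool 3, 14, 30 and 35 without wild-type pools 1, 3 and 4, 37 without mutant pool 2 and 73 without mutant pool 4. The 4 hepatoblast calls ranged from 0 to 6. The blood partners had 0 calls in all 17 alternatives, and array weights gave 2 calls among the endoderm partners, 1 among the heart partners, 3 in the foregut epithelium list, 2 in the second heart field list, 2 in the surface ectoderm list (1 as reported) and 5 among the Hedgehog targets (2 as reported). The foregut epithelium list had 1 call with quantile normalization, 1 with no background correction, 1 without wild-type pool 4 and 2 with slide as a random block.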
